A study of Mus musculus with 9 samples.

Results

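RNA that was recovered with Argonaute 2 from the amygdala was compared between mice that had become susceptible to chronic social defeat and mice that had not been defeated. The comparison rests on 6 arrays of 9, chosen by their titles: 3 from susceptible mice, numbered 1, 2 and 3, and 3 from controls, numbered 1, 2 and 4. All groups were male C57BL/6J mice with no transgene or drug named in the labels, and social defeat was applied to animals 10 weeks old. The controls went without defeat. Amygdala was dissected 8 days after the last defeat, Argonaute 2 was immunoprecipitated, and 100 ng of the recovered RNA was amplified and labelled for Affymetrix whole-transcript arrays. The other 3 arrays, from defeated mice called resilient, entered the estimate of the spread between arrays and are given as values beside the comparison. The sources used here do not say what test separated susceptible from resilient mice or whether animals were pooled. Nor do they say whether arrays came from different animals. The p-values therefore measure the spread from array to array, which may be technical.

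Argonaute 2 holds a microRNA and, through it, the transcripts that the microRNA pairs with. A fraction precipitated with it holds microRNAs, target transcripts and RNA that is carried along without being a target. Chronic social defeat is repeated exposure of a mouse to a dominant aggressor, and the amygdala is a temporal lobe structure that handles threat and social cues and responds strongly to stress hormones. A signal on these arrays can change because more of a transcript was made, because more of it was held by Argonaute 2, or because the tissue piece held other cells. No array of total RNA or of a control precipitation was analysed here, so these cannot be told apart.

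The deposited table held 9803 gene symbols after the entry with the highest mean was kept for each. All 7 pan-neuronal genes measured, all 8 markers of central amygdala and striatal-type neurons and all 6 of basolateral amygdala and cortical excitatory neurons lay above the level of olfactory and vomeronasal receptors, which are hardly transcribed in amygdala. That level, the 95th percentile of 590 such receptors in the control arrays, was 5.99 on the log2 scale. Pearson's correlation between arrays lay between 0.9945 and 0.9990, and precision is limited by how few arrays there are. The authors had kept symbols with some difference among the 3 groups. No symbol was without an entry whose one-way variance analysis over the groups gave a p of 0.287 or less. Counts of calls and shares therefore refer to a selected table. List members without such a difference may be missing, so counts within lists cover only the members that were kept.

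Susceptible mice had higher signals than controls for more genes than they had lower ones, and the differences were small. Of 9803 symbols, 235 (2.40%) passed an adjusted p of 0.05 in a limma model across all genes, 181 higher (1.85%) and 54 lower (0.551%) in susceptible mice. Their median change was 1.22-fold, 151 of them changed at least 1.2-fold, and the largest changed 1.79-fold. Among all symbols 5679 were higher and 4122 were lower, and the median difference was 0.05 (log2). At an unadjusted p under 0.05 there were 3991 symbols (40.7%), a share raised by the selection. When the p-values were corrected for that selection, 1 gene passed (0.0102%), namely Tnrc18, with an adjusted p of 0.0454.

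These calls rest on few arrays and on the scaling. With the 6 compared arrays alone 2 genes were called. No gene was called when control 1, control 2, susceptible 2 or susceptible 3 was left out, and 1 was called without resilient 2. Leaving out control 4 gave 89 calls, leaving out resilient 3 gave 136, leaving out resilient 1 gave 386, and leaving out susceptible 1 gave 1930. Shifting the arrays to a common median gave 231 higher and 1266 lower calls in place of 181 and 54, and 5 genes were called higher and 7 lower once arrays were quantile normalised. Each of the 63 called genes that the naming rule picks kept its direction in every setting that tested it. In most settings this was fixed beforehand. In all 235 called genes the control and susceptible arrays did not overlap, so leaving out an array could not reverse a direction. The fit of the 6 compared arrays alone leaves the differences unchanged. Lack of overlap, where given below for a single called gene, adds nothing to its call. Below, "rose", "fell" and "called" refer to the model of all 9 arrays. Counts of calls in any list are to be read beside the 1.85% of all symbols called higher and the 0.551% called lower.

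**Figure D1:**
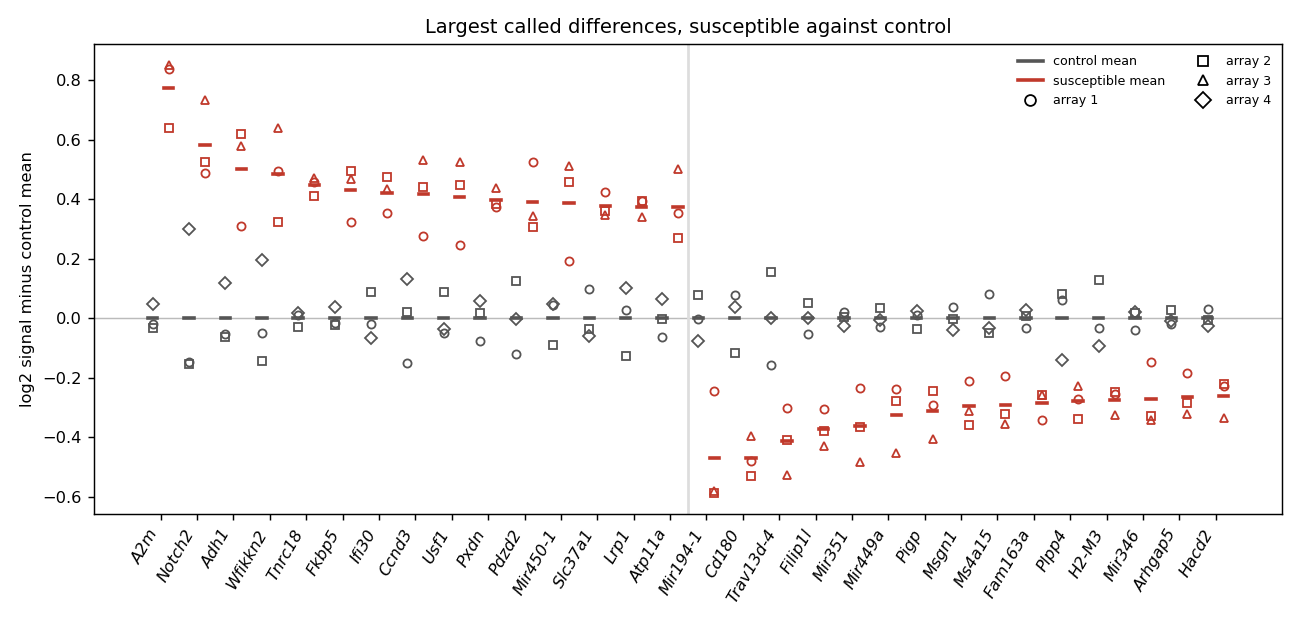
Each column is a gene, with log2 signal minus the control mean on the vertical axis; grey symbols are the 3 control arrays, red symbols the 3 susceptible arrays, and bars are group means. The 15 largest named increases are on the left, from A2m at 0.78 to Atp11a at 0.38, and the 15 largest named decreases on the right. The control and susceptible arrays do not overlap in these genes, nor in any of the 235 called genes from which they were chosen. Of all symbols, 25.4% had each susceptible array above each control and 14.8% had each below.

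Chromatin regulators, the proteins that write, erase or read marks on histones and DNA, were higher almost throughout. Of 31 measured, 30 were higher and 1 was lower in susceptible mice. The median difference was 0.14 against 0.05 for all symbols. None of the 31 was at the receptor level. In the brightest of 5 equal parts of all symbols by signal the median was 0.06, with 66.9% higher, and in the next 0.11, with 77.7% higher. In 23 of the 31 each susceptible array lay above each control array, which held for 25.4% of all symbols. The 6 that rose were Tnrc18, Kdm6b, Kmt2b, Kdm5c, Dnmt3a and Kmt2a, and none fell, where 1.85% of all symbols rose and 0.551% fell. The list was drawn up with the change of Tnrc18 known. After a shift to a common median 27 of the 31 were still higher, and after quantile normalisation 28.

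Tnrc18, a large nuclear protein whose human form binds a repressive histone mark, had the smallest adjusted p of the comparison. Its log2 signal was 8.93, 8.89 and 8.94 in controls 1, 2 and 4 and 9.38, 9.33 and 9.39 in susceptible mice 1, 2 and 3. Within each group the arrays lay close together and the groups were far apart. The difference was 0.45 ± 0.041 (log2, SE), or 1.36-fold, with a limma adjusted p of 0.0130. Resilient arrays were at 9.15, 9.27 and 9.23, between the other groups.

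Kmt2b and Kmt2a are methyltransferases that mark active promoters. Kmt2b was at 9.44, 9.48 and 9.42 in controls and at 9.77, 9.75 and 9.74 in susceptible mice, a rise of 0.30 ± 0.043 (limma adjusted p = 0.0363). Kmt2a was at 11.04, 11.04 and 11.03 in controls and at 11.27, 11.19 and 11.30 in susceptible mice, a rise of 0.21 ± 0.042 (adjusted p = 0.0439). Each susceptible array thus exceeded each control for both genes. The histone demethylases Kdm6b, which removes a repressive mark, and Kdm5c, which removes an activating one and is X-linked, also rose. Kdm6b went from 10.01 ± 0.08 to 10.33 ± 0.06 (mean ± SD, n = 3; adjusted p = 0.0415). A second, dim entry of Kdm6b differed by -0.06. Kdm5c went from 9.77 ± 0.07 to 10.03 ± 0.04 (limma adjusted p = 0.0415). The de novo DNA methyltransferase Dnmt3a was at 10.00, 9.99 and 9.82 in controls and at 10.25, 10.15 and 10.20 in susceptible mice, a rise of 0.26 (adjusted p = 0.0460). The methyltransferase Ehmt1 and the deacetylase Hdac4, both with a difference of 0.32, did not pass, with adjusted p-values of 0.0510 and 0.0625.

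Genes that glucocorticoids are known to induce were mostly higher. The stress hormone corticosterone enters cells, binds the glucocorticoid receptor and switches on genes such as Fkbp5, which in turn damps that receptor as a co-chaperone. Of 16 such genes measured, 15 were higher and 1 was lower. The median difference was 0.18, and 2 rose, Fkbp5 and Ddit4. Of all symbols 1.85% were called higher. Each susceptible array exceeded each control in 9 of the 16, and in 25.4% of all symbols. Neither scaling reversed the list, with 13 of 16 higher under each. The receptor gene Nr3c1 was not among the symbols tested, and neither was Crh, which encodes corticotropin-releasing hormone.

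Fkbp5 had log2 signals of 8.30, 8.29 and 8.35 in controls 1, 2 and 4 and of 8.64, 8.81 and 8.78 in susceptible mice 1, 2 and 3. The lowest susceptible array was well above the highest control. The difference was 0.43 ± 0.067 (SE), a 1.35-fold rise, with a limma adjusted p of 0.0397. Resilient arrays 1, 2 and 3 were at 8.51, 8.74 and 8.70, all above the controls and overlapping the susceptible range. Ddit4, an inhibitor of mTOR signalling, was at 9.51, 9.32 and 9.46 in controls and at 9.71, 9.66 and 9.69 in susceptible mice, a 1.19-fold rise (adjusted p = 0.0454).

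Several other members differed without passing. Plin4, a lipid droplet protein, was at 5.59, 5.86 and 5.52 in controls and at 6.21, 6.48 and 5.81 in susceptible mice (difference 0.52, adjusted p = 0.0698), and its ranges overlapped. Hif3a, a hypoxia-inducible factor, differed by 0.44 (adjusted p = 0.0830). Tsc22d3, which encodes the glucocorticoid-induced leucine zipper protein, was at 9.51, 9.36 and 9.45 in controls and at 9.52, 9.90 and 9.66 in susceptible mice. Its difference was 0.25 (adjusted p = 0.0884), and susceptible 1 was barely above control 1. Steroid receptors and chaperones did not share the direction, with 3 of 9 higher and a median of -0.06, and Fkbp5 was the 1 called among them.

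The promoters of the 2 called genes are shown because glucocorticoid-induced genes were a list in which sequence motifs were counted. The 250 bases before each start (RefSeq, GRCm38.p6) are written on the gene's strand, with the E-box CACGTG in capitals.
Fkbp5, chr17:28486150-28486399, minus strand: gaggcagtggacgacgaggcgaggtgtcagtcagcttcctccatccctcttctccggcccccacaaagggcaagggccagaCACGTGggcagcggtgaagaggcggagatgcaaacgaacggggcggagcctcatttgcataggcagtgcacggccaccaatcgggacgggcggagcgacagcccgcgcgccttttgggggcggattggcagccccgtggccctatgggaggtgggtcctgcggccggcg
Ddit4, chr10:59951771-59952020, minus strand: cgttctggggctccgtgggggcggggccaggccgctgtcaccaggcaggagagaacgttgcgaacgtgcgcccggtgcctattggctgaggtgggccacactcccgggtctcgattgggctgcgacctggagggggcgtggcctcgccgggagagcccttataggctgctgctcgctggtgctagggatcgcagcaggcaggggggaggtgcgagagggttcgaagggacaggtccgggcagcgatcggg
Motifs were searched on both strands. CACGTG lay in this window in 4 of the 15 glucocorticoid-induced genes with a promoter sequence, namely Fkbp5, Klf15, Per1 and Sgk1, in 15 of 143 genes called higher (10.5%), in 4 of 28 called lower (14.3%), in 8.06% of the table's 7075 genes with a promoter sequence and in 6.86% of all 27025 promoters. The hexamer AGAACA, part of the glucocorticoid response element, lay in 3 of the 15 genes, in 13 of 143 called higher (9.09%), in 8 of 28 called lower (28.6%), in 1064 of the table's 7075 genes and in 18.2% of all promoters. The full palindromic response element (AGAACA, any 3 bases, then TGTTCT), which contains that hexamer, was found in 3 promoters of 27025, of which 1 was that of Sgk1. None of these matches is evidence that a factor was bound, and response elements further from the start were not searched.

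The period genes of the circadian clock, whose proteins repress the Clock and Arntl activators, included 1 call. Per2 was at 9.21, 9.34 and 9.32 in controls and at 9.63, 9.69 and 9.63 in susceptible mice, and no arrays overlapped. It rose by 0.36 ± 0.077 (1.28-fold, limma adjusted p = 0.0479) and was the 1 clock gene called. Per1 and Per3 differed by 0.24 and 0.21 without passing (adjusted p = 0.0731 and 0.0583), and so did Dbp, a clock output gene, by 0.20 (adjusted p = 0.0786). The repressed partner Arntl was lower by a difference of -0.13 (not called). Of 16 clock genes 11 were higher, and the list median of 0.08 was close to that of all symbols. The labels do not give the hour at which tissue was taken.

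**Figure D2:**
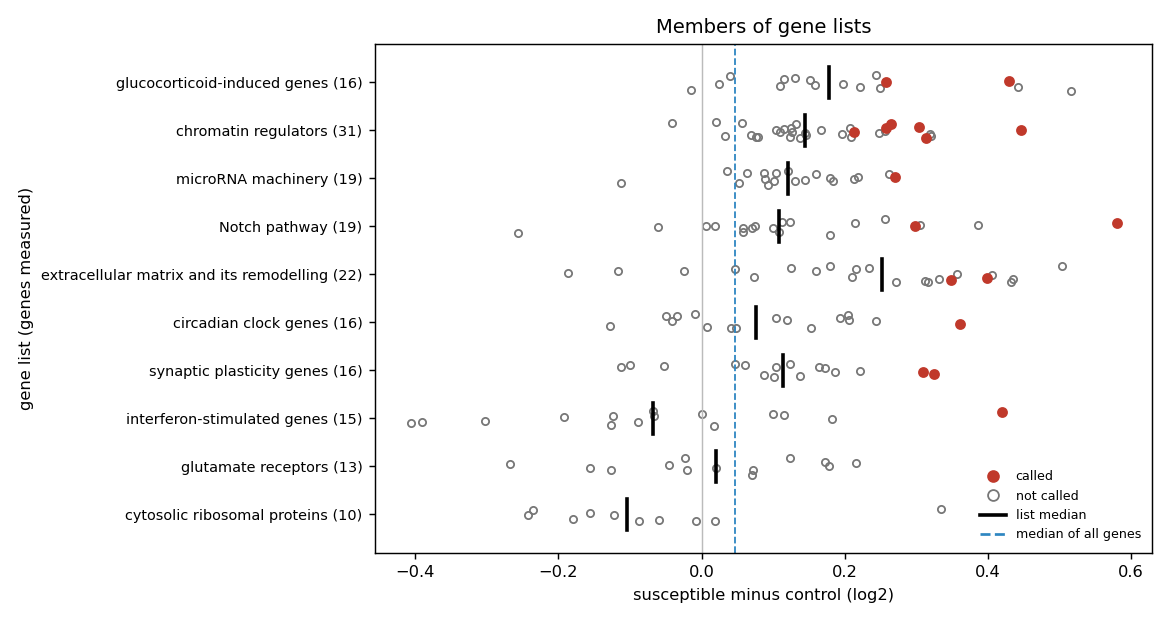
Each row is a gene list with the number measured, and each point is a gene at its susceptible minus control difference (log2); filled red points passed the adjusted p of 0.05, black bars are list medians and the dashed line is the median of all symbols at 0.05. Medians of the glucocorticoid-induced genes (0.18), chromatin regulators (0.14) and extracellular matrix genes (0.25) lie right of the dashed line, and those of interferon-stimulated genes (-0.07) and ribosomal proteins (-0.10) left of it.

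Notch genes were mostly higher, with 2 calls among 19, where 1.85% of all symbols were called higher. Notch receptors are cut after binding a Delta or Jagged ligand on a neighbouring cell, and the freed part acts with Rbpj on target genes. The receptor Notch2 was at 8.71, 8.71 and 9.16 in controls 1, 2 and 4 and at 9.35, 9.38 and 9.59 in susceptible mice, a rise of 0.58 ± 0.13 (1.5-fold, limma adjusted p = 0.0495). Control 4 stood apart from the other controls but below each susceptible array. Lfng, a glycosyltransferase that tunes the receptors' response to ligands, was at 9.26, 9.33 and 9.22 in controls and at 9.55, 9.63 and 9.52 in susceptible mice and rose by 0.30 ± 0.045 (adjusted p = 0.0397). The ligand Jag2 (0.39, adjusted p = 0.0570) and the receptor Notch1 (0.30, adjusted p = 0.0647) did not pass. Rbpj differed by -0.06 and the target Heyl by -0.26 (adjusted p = 0.0950). Of 19 genes measured 17 were higher, with a median of 0.11, and 13 were higher under each other scaling.

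Extracellular matrix genes had a median difference of 0.25, with 19 of 22 higher. Pxdn, a peroxidase that crosslinks collagen IV, was at 9.97, 10.06 and 10.10 in controls and at 10.42, 10.43 and 10.48 in susceptible mice, a rise of 0.40 ± 0.069 (limma adjusted p = 0.0397). The basement membrane laminin chain Lamc1 was at 9.22, 9.10 and 9.20 in controls and at 9.40, 9.56 and 9.60 in susceptible mice, a rise of 0.35 ± 0.064 (adjusted p = 0.0397). For both genes no susceptible array reached down to a control. Lamb1, another laminin chain (0.43), Nid2, which links laminin to collagen (0.44), and Col8a1, a short-chain collagen (0.50), did not pass, with adjusted p-values of 0.0667, 0.0984 and 0.104. Markers of meningeal and vascular fibroblasts, which make much of this matrix, had a median difference of 0.10, with 8 of 12 higher and none called. Their mean deviation from the control mean was -0.05, -0.03 and 0.09 in controls and 0.06, 0.09 and 0.23 in susceptible mice, with control 4 inside the susceptible range. Their part in the matrix result was not tested.

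The largest named increase was that of A2m, a broad plasma protease inhibitor. A2m was at 7.90, 7.89 and 7.97 in controls and at 8.76, 8.56 and 8.77 in susceptible mice, which is 0.78 ± 0.15 higher (1.71-fold, limma adjusted p = 0.0443). Resilient arrays were at 7.63, 8.15 and 8.37, below each susceptible array and on both sides of the controls. Other acute phase genes were measured, and of the list of 11 A2m was the 1 called. Lbp, which binds bacterial lipopolysaccharide, had the next largest difference at 0.59 without a call.

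Adh1, an alcohol and retinol dehydrogenase, was at 5.91, 5.90 and 6.08 in controls and at 6.28, 6.58 and 6.54 in susceptible mice. It rose by 0.50 ± 0.083 (1.42-fold, limma adjusted p = 0.0397), while resilient arrays lay at 5.99, 6.10 and 6.00, of which 6.10 was just above control 4. The control mean of 5.97 was just below the receptor level of 5.99. Rdh5, a retinol dehydrogenase, differed by 0.61 (adjusted p = 0.0786), and 12 of 20 retinoid and alcohol metabolism genes were higher. Wfikkn2, a secreted inhibitor of growth differentiation factors, was at 6.09, 5.99 and 6.33 in controls and at 6.63, 6.46 and 6.78 in susceptible mice, a rise of 0.49 ± 0.10 (adjusted p = 0.0473). A second entry for it differed by 0.34. For A2m, Adh1 and Wfikkn2 the susceptible minus resilient differences did not pass their own test (adjusted p = 0.411 each).

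Markers of choroid plexus epithelium, the ventricular tissue that makes cerebrospinal fluid, were higher along with these genes. All 24 measured were higher in susceptible mice, none was called, and their median difference was 0.50. Their mean deviation was -0.23, -0.05 and 0.28 in controls 1, 2 and 4 and 0.40, 0.27 and 0.72 in susceptible mice 1, 2 and 3, so control 4 overlapped the susceptible range. Among the defining markers Ttr, which carries thyroid hormone, had a mean of 13.19 ± 0.12 (SD) in controls and of 13.36 ± 0.06 in susceptible mice (difference 0.16, adjusted p = 0.106). The transporters Abca4 (0.78) and Slc4a5 (0.73), the ion channel Trpv4 (0.71) and the tight junction gene Cldn2 (0.64) differed most and did not pass. Slc4a5 was at 8.32, 8.53 and 9.10 in controls and at 9.25, 9.09 and 9.81 in susceptible mice. Of other uncalled genes with wide differences, Calml4, a calmodulin relative (0.75, adjusted p = 0.0530), and the zinc transporter Slc39a4 (0.64, adjusted p = 0.111) had control 4 and susceptible 3 as the highest arrays of their groups too. Ependymal and cilia markers were higher in 13 of 13 cases with a median of 0.14. Notch2, Wfikkn2 and Ccnd3 had their highest control value in control 4 and their highest susceptible value in susceptible 3, as did the choroid plexus mean. The same order held for A2m and Pxdn, not for Adh1, and also for the receptors Vmn1r103 and Olfr787. Over the whole table the deviations of control 4 and susceptible 3 from their group means correlated at 0.35. The genes named for this order are examples beside the choroid plexus markers, and its share among all symbols was not counted. The part of such tissue in the rise of A2m, Adh1, Wfikkn2, Notch2 and the matrix genes was not tested. For RNA precipitated from tissue, changes in cell number, in RNA per cell and in what Argonaute 2 held cannot be told apart.

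**Figure D3:**
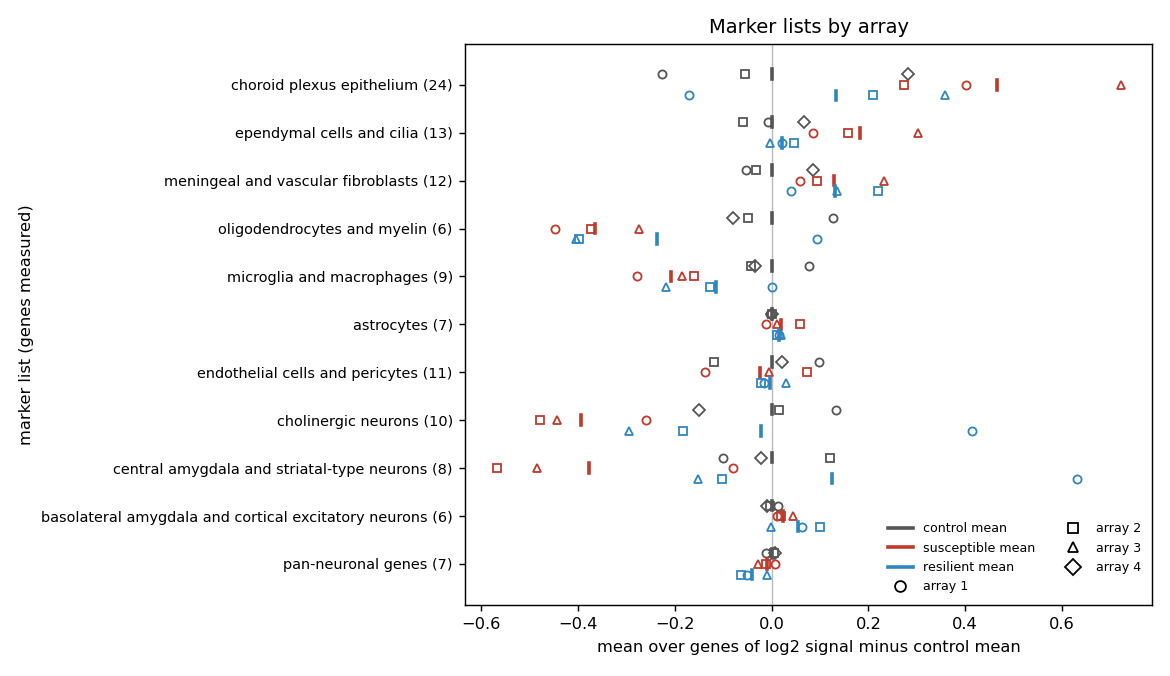
Each row is a marker list with the number measured, and each symbol is an array at its mean over those genes of log2 signal minus control mean; grey is control, red susceptible, blue resilient, and bars are group means. Choroid plexus markers run from -0.23 to 0.28 in controls and from 0.27 to 0.72 in susceptible mice, oligodendrocyte and microglial markers lie lower in susceptible mice than in any control, and resilient 1 stands apart at 0.63 in the central amygdala and striatal-type list.

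The machinery that works with microRNAs was higher in 18 of 19 genes, with a median difference of 0.12 and 1 call. Of all symbols 1.85% were called higher. Tnrc6c, a scaffold that Argonaute proteins recruit to silence transcripts, was at 10.78, 10.73 and 10.88 in controls and at 11.09, 11.03 and 11.08 in susceptible mice. It rose by 0.27 ± 0.053 (1.21-fold, limma adjusted p = 0.0443) with no overlap of arrays. Ago2, the transcript of the precipitated protein itself, differed by 0.18 (adjusted p = 0.0950), with susceptible 2 at 11.34 just below control 4 at 11.35, and its second entry differed by 0.19. Dicer1, which cuts microRNA precursors, differed by 0.21 (adjusted p = 0.0756). The helicase Mov10 (0.26) and Zswim8 (0.22), a ubiquitin ligase adaptor that destroys Argonaute on certain targets, did not pass either. Lin28a, a blocker of let-7 processing, was the 1 member lower. Across the other scalings 15 and 17 of the 19 were higher.

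Reported targets of the miR-15/16 family were higher in 13 of 15 cases, with a median difference of 0.16 and 2 calls, Fkbp5 and Ccnd3. Ccnd3, a cyclin of the first growth phase, was at 8.53, 8.70 and 8.81 in controls and at 8.96, 9.12 and 9.21 in susceptible mice (1.34-fold, limma adjusted p = 0.0460). Ucp2, a mitochondrial carrier, differed by 0.35 (adjusted p = 0.0585), while Bdnf, a neurotrophin, was at 6.27, 6.21 and 6.18 in controls and at 6.19, 6.17 and 6.18 in susceptible mice. The list was gathered with earlier results known, and Fkbp5 also belongs to the glucocorticoid list. The genes of the family members themselves were not called. Mir15a differed by 0.12, Mir15b by 0.22, Mir16-2 by 0.11, Mir195a by -0.01 and Mir497 by -0.04, and of these Mir16-2 was the 1 above the receptor level.

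Of 148 microRNA genes measured, 45 lay above the receptor level, and 2 rose and 4 fell, where 1.85% of all symbols rose and 0.551% fell. The labels do not say whether these entries read the precursor or the mature form. The mature sequences of the 6 called genes that are named for the 5′ arm, or for Mir451a its mature strand (RefSeq, GRCm38.p6), are shown since the seed, bases 2 to 8 in capitals, sets which transcripts a microRNA pairs with.
Mir450-1, mmu-miR-450a-5p: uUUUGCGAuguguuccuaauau
Mir451a, mmu-miR-451a: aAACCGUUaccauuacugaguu
Mir194-1, mmu-miR-194-5p: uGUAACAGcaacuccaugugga
Mir351, mmu-miR-351-5p: uCCCUGAGgagcccuuugagccug
Mir449a, mmu-miR-449a-5p: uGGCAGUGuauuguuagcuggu
Mir346, mmu-miR-346-5p: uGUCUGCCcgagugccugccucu
No seed among these 6 was shared with another of them. All 125 microRNA genes matched to a mature sequence were searched for the same seeds.

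Mir194-1 fell most. It was at 6.31, 6.39 and 6.24 in controls and at 6.07, 5.73 and 5.73 in susceptible mice, a difference of -0.47 ± 0.093 (limma adjusted p = 0.0450). Susceptible 1 was closest to the controls, and the susceptible mean of 5.84 was below the receptor level of 5.99. Mir346 was at 7.67, 7.73 and 7.73 in controls and at 7.57, 7.38 and 7.37 in susceptible mice (-0.27 ± 0.053, adjusted p = 0.0439), again with susceptible 1 nearest. Mir449a, of the seed family of miR-34b and miR-449c, was lower by -0.32 (adjusted p = 0.0397) at a level near 5.33 in controls, which is below the receptor level. Its seed partners Mir34b and Mir449c differed by 0.07 and -0.03. Mir451a, a microRNA abundant in red blood cells, rose from 5.33 ± 0.03 to 5.59 ± 0.11 (adjusted p = 0.0460), also below the receptor level. Its neighbour Mir144 differed by 0.39 (adjusted p = 0.0916). Among blood cell markers the haemoglobin gene Hba-a2 rose by 0.24 ± 0.051 (adjusted p = 0.0489), Hba-a1 differed by 0.23 (adjusted p = 0.0505) and Alas2, a haem synthesis enzyme of red cells, by 0.29 (adjusted p = 0.0669). The list as a whole had 5 of 10 higher.

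Called microRNA genes of opposite direction lay within 10000 bases of each other on chromosome X, on the minus strand, a pattern chosen after the values were seen. Mir450-1 (chrX:53048154-53048244, GRCm38.p6) was at 6.69, 6.55 and 6.69 in controls and at 6.84, 7.10 and 7.15 in susceptible mice, a rise of 0.39 ± 0.079 (limma adjusted p = 0.0460). Mir450-2, whose 5′ product has the same seed, was 145 bases away and differed by 0.32 (adjusted p = 0.0958), and Mir450b by 0.34 (adjusted p = 0.103). These 3 entries therefore pointed the same way. Mir351 (chrX:53053276-53053338), 5122 bases from Mir450-1, was at 6.13, 6.11 and 6.08 in controls and at 5.87, 5.74 and 5.62 in susceptible mice, a fall of -0.36 ± 0.067 (adjusted p = 0.0412). All its susceptible arrays lay below the receptor level of 5.99. Mir503, 708 bases from Mir351, differed by -0.14 (adjusted p = 0.0783) at a level below the receptors. The seed of miR-351-5p is that of miR-125b-5p, and Mir125b-1 and Mir125b-2 differed by 0.14 and 0.18 at the receptor level without a call.

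**Figure D4:**
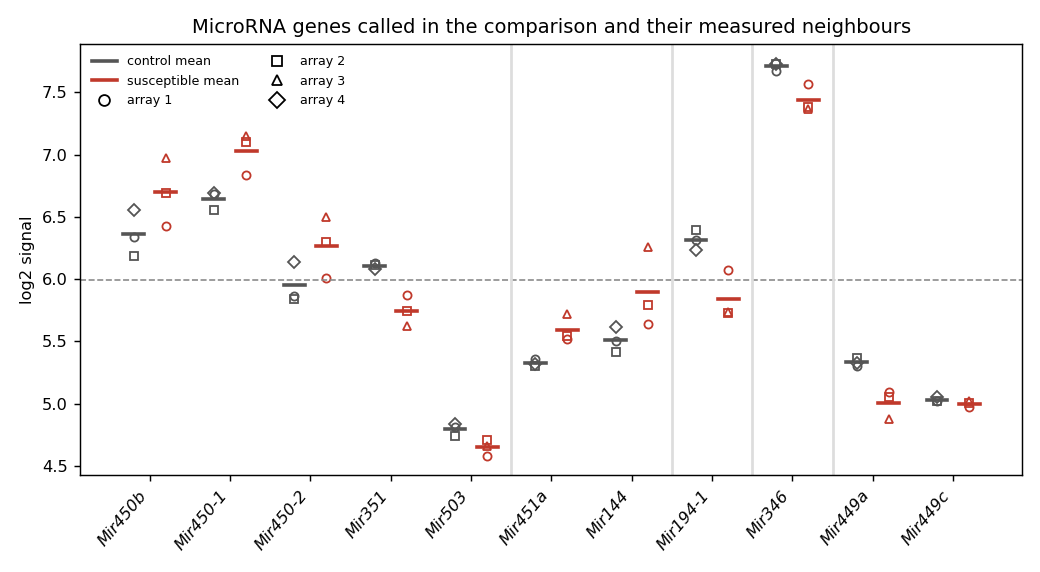
The 6 called microRNA genes and their measured neighbours within 10000 bases, with log2 signal on the vertical axis; grey symbols are control arrays, red symbols susceptible arrays, bars group means, the dashed line the receptor level of 5.99, and vertical lines part the loci. Mir450-1 lies higher and Mir351 lower in susceptible mice, while Mir449a and Mir451a lie below the dashed line in both groups.

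Of 25 microglial and macrophage markers listed, the selected table held 9. All 9 were lower, with a median difference of -0.19 and 1 call, where 0.551% of all symbols were called lower. Cd180, a Toll-like receptor relative that tempers responses to lipopolysaccharide, was at 8.31, 8.12 and 8.27 in controls and at 7.75, 7.70 and 7.84 in susceptible mice. It fell by 0.47 on the log2 scale (SE 0.080, 1.38-fold, limma adjusted p = 0.0397), and each susceptible array lay below each control. Trem2, a lipid-sensing receptor of microglia, was lower by -0.31 (adjusted p = 0.0995), with susceptible 3 at 7.48 just under the lowest control. The mean deviation of the 9 markers was 0.08, -0.04 and -0.03 in controls and -0.28, -0.16 and -0.19 in susceptible mice. Both other scalings left 9 of 9 lower.

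Of 24 oligodendrocyte and myelin markers listed, the selected table held 6. All 6 were lower, with a median of -0.31, and none passed. Aspa, which breaks down N-acetylaspartate in oligodendrocytes, was at 8.91, 8.86 and 8.84 in controls and at 8.40, 8.44 and 8.61 in susceptible mice (-0.39, adjusted p = 0.0527). Opalin, a myelin membrane protein, differed by -0.57 (adjusted p = 0.0792). Their mean deviation was 0.13, -0.05 and -0.08 in controls and -0.45, -0.37 and -0.28 in susceptible mice, without overlap. Resilient 1 was at 0.09 with the controls and resilient 2 and 3 at -0.40 and -0.40 with the susceptible arrays. Astrocyte markers had a median of -0.03 and 1 call, the growth factor receptor Fgfr3, which rose by 0.23 ± 0.046 (adjusted p = 0.0450).

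Immune genes outside the microglial marker list went both ways, and the cells that their signal came from were not tested. Ifi30, a lysosomal thiol reductase that prepares antigen, went from a mean of 8.52 ± 0.08 (SD, n = 3) in controls to 8.94 ± 0.06 in susceptible mice, a rise of 0.42 ± 0.052 (1.34-fold, limma adjusted p = 0.0253). Of the 15 interferon-stimulated genes measured, Ifi30 included, 5 were higher and 9 lower, and their median was -0.07. B2m, the light chain of class I molecules, was at 12.23, 12.32 and 12.25 in controls and at 11.76, 11.92 and 11.90 in susceptible mice, which gave a difference of -0.41 (adjusted p = 0.0601). H2-M3, a class I molecule that presents formylated peptides, fell by 0.28 (adjusted p = 0.0489) at a level below the receptors. The T cell receptor segment Trav13d-4 fell from 6.87 ± 0.16 to 6.46 ± 0.11 (adjusted p = 0.0460).

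The 3 widest differences without a call were in genes known from neurons of the basal forebrain and striatum, which border the amygdala. Scn4b, a sodium channel subunit of striatal neurons, was at 8.37, 8.99 and 8.98 in controls and at 8.47, 7.23 and 7.53 in susceptible mice, a difference of -1.04 ± 0.44 (limma adjusted p = 0.114). Susceptible 1 lay within the control range. Resilient 1 was at 10.03, above each control. The acetylcholine vesicle transporter Slc18a3 was at 6.26, 6.06 and 5.83 in controls and at 5.40, 5.04 and 5.05 in susceptible mice (-0.89, adjusted p = 0.0862). All its susceptible arrays and the control at 5.83 lay below the receptor level of 5.99. The choline transporter Slc5a7 differed by -0.86 (adjusted p = 0.115) and Chat, which makes acetylcholine, by -0.48 (not called). All 10 cholinergic markers in the table (of 14 listed, with 3 of the 10 at the receptor level) were lower, with a median of -0.30. So were 7 of the 8 markers of central amygdala and striatal-type neurons in the table, of 27 listed, with a median of -0.35. The mean deviation of the striatal-type list was -0.10, 0.12 and -0.02 in controls and -0.08, -0.57 and -0.48 in susceptible mice, so susceptible 1 lay inside the control range. In 2 of its 8 genes each susceptible array was below each control, which held for 14.8% of all symbols. The dopamine receptor Drd2 differed by -0.44 (adjusted p = 0.167). The mean deviation of the cholinergic list was 0.13, 0.02 and -0.15 in controls and -0.26, -0.48 and -0.44 in susceptible mice, with resilient 1 at 0.41. Snord115, a small nucleolar RNA of the Prader-Willi locus, differed by -0.66 (adjusted p = 0.0796). The part of where the tissue was cut in these values was not tested.

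By contrast, basolateral and cortical excitatory markers had a median of -0.03 with 2 of 6 higher, and pan-neuronal genes a median of 0.02, which was negative after the median shift, with 4 of 7 higher. Synaptic plasticity genes were higher in 13 of 16 cases with a median of 0.11. Bsn, a scaffold of the presynaptic active zone, was at 10.34, 10.31 and 10.44 in controls and at 10.68, 10.67 and 10.67 in susceptible mice, a rise of 0.31 ± 0.067 (limma adjusted p = 0.0492), but a second entry of much lower signal differed by -0.13. Tspoap1, which links calcium channels to the release site, rose by 0.32 ± 0.067 (adjusted p = 0.0460). Glutamate receptors had a median of 0.02 and no call. GABA receptors had none either, with Gabrd at -0.27 (adjusted p = 0.0676). The median of the glutamate receptors turned negative under both other scalings. Of 24 voltage-gated sodium and potassium channels, 12 were higher and none was called.

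The counts in larger families are read against all symbols, of which 1.85% rose and 0.551% fell. Of 166 zinc finger proteins 7 rose and none fell, with Zfp516 (0.36) and Zfp667 (0.35) in front and a median of 0.08. Of 165 solute carriers 4 rose, a share near that of all symbols, and the exchanger Slc37a1 led them, at 8.69, 8.56 and 8.54 in controls and at 9.02, 8.96 and 8.94 in susceptible mice (0.38, limma adjusted p = 0.0397). The mitochondrial aspartate carrier Slc25a13 rose by 0.31. Lrp1, an endocytic receptor that clears A2m with its bound proteases, rose from 11.35 ± 0.12 to 11.73 ± 0.03 (1.30-fold, adjusted p = 0.0495). The transcription factor Usf1, which binds E-boxes, was at 6.89, 7.02 and 6.90 in controls and at 7.18, 7.38 and 7.46 in susceptible mice (0.41, adjusted p = 0.0443). Atp11a, a phospholipid flippase, rose by 0.38 (adjusted p = 0.0397) and Pdzd2 by 0.39 (adjusted p = 0.0473).

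Fewer genes with established names fell. After clone, predicted and pseudogene names and olfactory and vomeronasal receptors were set aside, by deposited or current name, 25 of the 54 lower genes and 169 of the 181 higher genes were left. Among those set aside by a clone-like deposited name was Mideas, chosen here after its value was seen, which is a scaffold of a histone deacetylase complex. It was at 8.55, 8.48 and 8.66 in controls and at 8.81, 9.01 and 9.14 in susceptible mice (0.42, limma adjusted p = 0.0397), a larger rise than that of Atp11a. Filip1l, a relative of a filamin-binding protein, was at 6.51, 6.62 and 6.57 in controls and at 6.26, 6.19 and 6.14 in susceptible mice (-0.37 ± 0.065, limma adjusted p = 0.0397). Pigp, an enzyme subunit of membrane anchor synthesis, was at 11.03, 10.98 and 11.04 in controls and at 10.73, 10.78 and 10.62 in susceptible mice (-0.31, adjusted p = 0.0460). Both fell with clear gaps between the groups. Fam163a fell by 0.29 (adjusted p = 0.0363), the lipid phosphatase Plpp4 by 0.28 (adjusted p = 0.0489) and Arhgap5 by 0.26 (adjusted p = 0.0397). Hacd2, a fatty acid elongation enzyme, fell by 0.26 (adjusted p = 0.0415), and a second entry for it differed by 0.00. Msgn1 and Ms4a15 each fell by 0.29 at levels below the receptors.

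Signal and gene length moved with the direction of the calls. With the symbols in 5 equal parts by signal, the median difference was -0.05 in the dimmest and then -0.02, 0.09, 0.11 and 0.06. Genes called higher numbered 2, 9, 51, 80 and 39 from dim to bright, and genes called lower 9, 17, 16, 7 and 5. Above the receptor level the median difference was 0.09 as deposited and 0.02 under either other scaling. At or below it the median was -0.05 as deposited, -0.11 after the median shift and -0.02 after quantile normalisation. At or below the receptor level were 3858 of all 9803 symbols, 23 of the 54 lower calls and 10 of the 181 higher calls. The genomic span of a gene had a median of 40.2 kb in genes called higher, 6.75 kb in genes called lower and 18.5 kb in all symbols (RefSeq, GRCm38.p6). Protein-coding genes made up 97.2% of the higher calls, 48.1% of the lower ones and 87.6% of all symbols. Olfactory and vomeronasal receptors themselves had 7 genes called higher and 1 lower among 590, both smaller shares than the 1.85% and 0.551% of all symbols. Yet 449 of the 590 were higher (76.1%, against 57.9% of all symbols). The number was 366 after the median shift and 469 after quantile normalisation. Their median of 0.10 was near those of the Notch genes (0.11) and the microRNA machinery (0.12). The part of signal and span in the lists above was not tested.

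**Figure D5:**
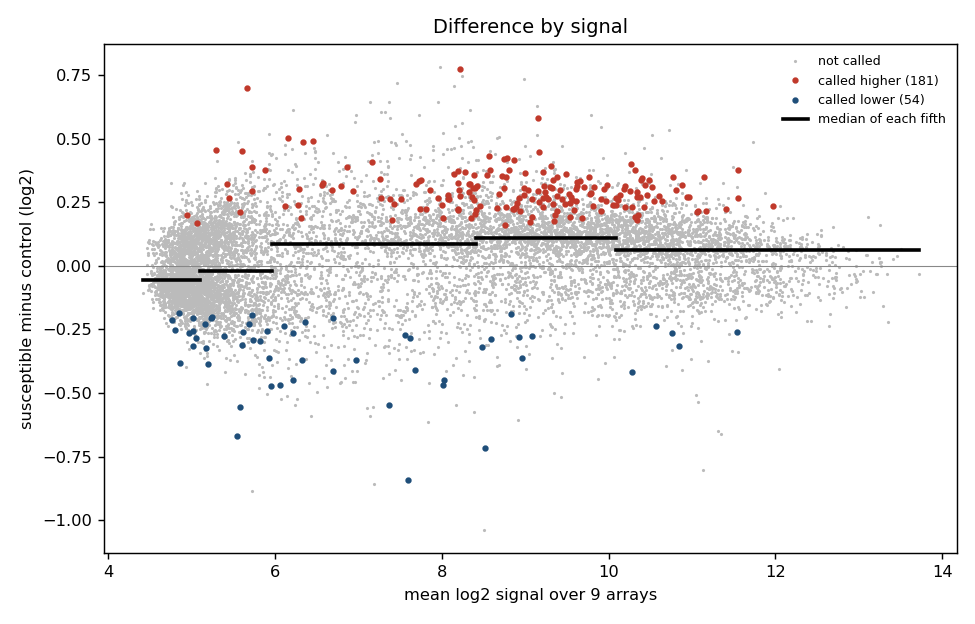
Each point is a gene at its mean log2 signal over 9 arrays and its susceptible minus control difference (log2); red points were called higher (181), blue points lower (54), and black bars are the medians of 5 equal parts by signal. The medians run from -0.05 in the dimmest part to 0.11 in the fourth, and the 3 dimmest parts hold 9, 17 and 16 of the 54 blue points, while the 3 brightest hold 51, 80 and 39 of the 181 red points.

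Against the other defeated group the susceptible arrays gave no call. No gene passed an adjusted p of 0.05 for susceptible minus resilient in limma (0% of 9803), the smallest being 0.346, and 1158 (11.8%) had an unadjusted p under 0.05. Without susceptible 1, 6 genes passed. Resilient mice share the controls with the comparison above, so their differences from control are not independent of it, and they are given as values. The difference from control was 0.45 in susceptible and 0.30 in resilient mice for Tnrc18, 0.43 and 0.34 for Fkbp5, and 0.36 and 0.25 for Per2. For A2m it was 0.78 and 0.13, for Adh1 0.50 and 0.07, and for Wfikkn2 0.49 and 0.10. For Filip1l it was -0.37 and -0.36, and for Arhgap5 -0.26 and -0.27. In 229 of the 235 called genes the resilient mean lay between those of control and susceptible mice. These genes were chosen by their susceptible minus control difference, which by itself favours a smaller resilient one. A p that misses the threshold does not show that the defeated groups were alike.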

How the data were processed

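Amygdala RNA precipitated with Argonaute 2 was measured on 9 arrays (3 control, 3 susceptible, 3 resilient), grouped by title. The deposited log2 values were made by the authors with RMA, and Partek is listed as well, per the submitters' processing notes, without versions. A second deposited table gave the symbols through its probe set identifiers. Its 9 value columns matched no label and were not used. Of 9803 symbols, 1013 were replaced by current ones and 8393 were current (NCBI, GRCm38.p6), and 978 had several entries. Array medians were 7.11 to 7.19.

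All 9 arrays entered a limma fit with 3 group means and no filter (lmFit, contrasts.fit, eBayes, two-sided, prior degrees of freedom 3.40), and p-values were Benjamini-Hochberg adjusted over 9803 symbols with a threshold of 0.05. The allowance for selection divides each p by 0.287 before adjustment. Errors are limma's standard errors (SE) or standard deviations (SD). The fit was tested on simulated data.

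Genes were named by rule: the 15 largest called increases and decreases with established names, both as deposited and as updated; each list's called members and up to 6 largest differences; Fkbp5, Tnrc18, Ago2, Dicer1, Bdnf, Ttr, Nr3c1 and Crh; and up to 10 largest uncalled differences. A few further list members are given as values and were chosen after their values were seen. Comparison, rule and gene lists were chosen with earlier results of these data known, and 2 name patterns, for microRNA and histone genes, were edited after the data were seen. Lists are described by counts and medians, without set tests. Alternatives were other arrays in the fit, scalings, a replicate block, array weights, another variance prior, entries averaged, dim genes dropped, the allowance, and each array left out. Fits used limma 3.58.1 in R 4.3.3. Tables and figures used matplotlib 3.10.9, scipy 1.17.1, numpy 2.4.6 and pandas 2.3.3 under Python 3.11.15.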

Additional observations from a re-analysis of the deposited data

How the results depend on the processing

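The count of 235 genes called for susceptible minus control moved under most alternatives. It was 2 with the arrays of the 2 groups alone, 1497 with arrays shifted to a common median, 12 after quantile normalisation, 3443 with array weights, 395 with trend and robust eBayes, 382 with dim genes dropped, 1 with the allowance for selection and 266 with entries averaged. Leaving out an array gave 0 to 1930 calls. The median difference of all symbols was 0.05 as deposited, -0.02 after the median shift and 0.01 after quantile normalisation. The median shift thus reversed its sign, and calls went from 181 higher and 54 lower to 231 higher and 1266 lower. Of 63 named called genes, 60 were called after the median shift, 4 after quantile normalisation and 16 without control 4, all in the same direction. Without control 4 the direction was fixed beforehand, because the groups did not overlap in any called gene. The susceptible minus resilient count was 0 throughout, except for 6 without susceptible replicate 1 (range 0 to 6).

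With the replicate number as a block 0 genes were called (smallest adjusted p 0.0718; 2698 at an unadjusted p under 0.05). The correlation of deviations between same-numbered arrays ran from -0.08 to 0.25 and was higher for some pairs of different numbers, such as 0.35 for control 4 and susceptible 3, so the samples share a number and are not known to be paired.

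The cause of these moves was not tested. Signals below the receptor level limit what can be said of most microRNA genes.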
